A study of Mus musculus with 17 samples.

Results

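The expression profiles of 2 mouse embryonic stem (ES) cell lines, iFoxA1 and iFoxL2, were compared 24 h after each line was released to express its own forkhead transgene. The comparison holds 5 of the 17 libraries of the series, all 3 of iFoxA1 and both of iFoxL2 at 24 h, chosen by their line and time labels. The 3 libraries of the same lines at 0 h (2 of iFoxA1 and 1 of iFoxL2) served as the background before induction. Both lines derive from MC1 ES cells (genotype label 129S6/SvEvTac), and both carry the open reading frame of 1 transcription factor with a C-terminal His-FLAG tag, together with a puromycin resistance gene, at the Rosa26 locus, where doxycycline (Dox) represses it. At 0 h the cells were in serum, leukemia inhibitory factor (LIF), Dox and puromycin. At 24 h Dox had been washed out and the cells had been grown in a differentiation medium with less serum, so transgene induction and the change of medium occurred together in both lines. A line without a transgene was not analysed here, and the labels describe 1 engineered line per factor, so a difference between factors and a difference between these lines cannot be told apart. Strand-specific libraries had been made from polyadenylated RNA.

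FoxA1 and FoxL2 share the winged-helix DNA-binding domain that defines the forkhead family. FoxA1 is a pioneer factor, able to bind its sites in closed chromatin, and acts in foregut endoderm, liver, lung and the axial midline (node, notochord and floor plate) together with its paralog FoxA2. FoxL2 is a factor of ovarian granulosa cells, where it maintains female somatic cell identity, and of the developing eyelid and pituitary.

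The transgenes were read first, as a check of the labels. Levels are given in replicate order as CPM, counts relative to library totals after TMM scaling. Foxa1 (chr12:57540628-57546916, minus strand, GRCm38) stood at 240, 256 and 75.7 CPM in iFoxA1 at 24 h and at 0.308 and 0.251 CPM in iFoxL2. Foxl2 (chr9:98955288-98958543, plus strand) stood at 151 and 11.5 CPM in iFoxL2 at 24 h and at 0.151, 0.0545 and 0.0875 CPM in iFoxA1. Each transgene was thus far higher in every library of the line named for it than in the other line. The lower of its levels lay in the same library set in both lines, but the fall was larger for Foxl2 than for Foxa1. A single term for the library set does not adjust for that inequality. The log2 difference (iFoxA1 minus iFoxL2) was 8.97 ± 0.27 (SE, adjusted p = 0.00166) for Foxa1 and −9.61 ± 0.46 (adjusted p = 0.00344) for Foxl2. At 0 h, Foxa1 was at 1.86 and 3.05 CPM in iFoxA1, and Foxl2 at 1.13 CPM in iFoxL2.

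Library totals ranged from 17.66 to 37.17 M estimated counts over the series. The libraries over 30 M, here iFoxA1 replicate 3 and iFoxL2 replicate 2, form a second library set that stood apart. They held 46550 and 57880 TPM (length-scaled transcript abundance) of Mir6236, against 1020 to 1633 TPM in the 6 other libraries of these lines. Their mean log2(CPM) over 17 naive pluripotency genes was 6.588 and 6.6, near the 0 h libraries (6.842 to 6.874) and above the other 24 h libraries (4.57 to 5.089). The set was therefore a term of the fit, and each gene's values are given in both sets. The mitochondrially encoded share of counts moved with the line at 24 h, at 2.54 to 2.88% in iFoxA1 and 1.94 and 1.95% in iFoxL2, against 2.8 to 3.01% at 0 h. Of its 13 genes, 7 had all iFoxA1 libraries above both of iFoxL2, as did 14.7% of all genes tested. Among the 13, 2 were called higher in iFoxA1 (median log2 difference 0.49), as were 6.21% of all genes tested. Neither call remained without iFoxA1 replicate 1 or 2 (0 each). The part of the mitochondrial share in the other differences was not tested. iFoxA1 replicates 1 and 2 at 24 h, which share a set, had a chi-square per degree of freedom of 3.609 over 13627 genes. The other pairs within a line at 24 h, at 189 to 237.9, each span both sets. The iFoxA1 pair at 0 h, which also shares a set, gave 3.013. At 24 h, iFoxA1 replicates 1 and 2 differed by more than counting noise, which cannot show that they are independent. They were kept as separate libraries, and most calls at 24 h depend on this, as given below. Nothing in the labels tells whether the replicates came from separate cultures, so the p-values measure only the spread between these libraries, which may be technical. In bulk RNA, fewer cells of a type and less RNA per cell cannot be told apart. General ES cell genes were high in both lines: Pou5f1 ranged from 722 to 1559 CPM and Sox2 from 139 to 279 CPM over the 5 libraries.

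In the comparison of both lines at 24 h, 1833 of 16695 genes tested (11.0%) passed an adjusted p of 0.05 by the edgeR quasi-likelihood test. Of these, 1037 (6.21% of genes tested) were higher in iFoxA1 and 796 (4.77%) were higher in iFoxL2. The larger differences were mostly on the iFoxA1 side: 323 genes were higher there by a log2 difference of at least 2, against 93 in iFoxL2, and 197 against 33 by at least 3. Whether the low Foxl2 level of the second set has a part in this was not tested. Genes of the node and notochord, of definitive endoderm and of primitive endoderm were among those higher in iFoxA1. Genes of formative epiblast and of epithelial junctions were among those higher in iFoxL2. The count changed with the libraries used: it was 200 without iFoxA1 replicate 1, 139 without replicate 2, 288 with these replicates summed as 1 library, 7966 without replicate 3, 7574 and 8505 without iFoxL2 replicate 1 and 2, and 7 with no term for the library set. An exact permutation test of 3 libraries against 2 cannot give p below 0.1 for a single gene. Of the genes higher in iFoxL2, 30.8% lie on chromosomes 8 and 14, whose genes were shifted together, as described with the plot of differences by chromosome.

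Across the 11292 tested genes with at least 5 CPM in either line, the differences measured within each library set had a Pearson r of 0.5641, a description across genes that share the same libraries. Of 1246 genes that differed at least 2-fold in the first set, 1007 had the same sign in the second and 443 also differed at least 2-fold there. Both transgenes were also lower in the second set, Foxl2 by a larger factor than Foxa1.

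The genes with the largest difference on the iFoxA1 side, under a rule that asked for non-overlapping libraries and the same direction in each set, included Shh, Cd177, Gna14, Zbtb16, Popdc2, Pof1b, Tacr1, Nostrin, Lpar3, Pkd1l1, Apob, Bmp2, Emp2 and Tekt5. They include a morphogen of the midline (Shh), the apolipoprotein B gene of liver and yolk sac (Apob) and receptors for lysophosphatidic acid (Lpar3) and substance P (Tacr1). Because non-overlap was part of the rule, it is no finding for these genes.

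Shh (chr5:28456815-28467256, minus strand), the secreted Hedgehog ligand of notochord and floor plate, was at 59.5, 60.3 and 7.52 CPM in iFoxA1 and at 0.205 and 0 CPM in iFoxL2. The log2 difference was 8.38 ± 0.31 (adjusted p = 0.00312), and at 0 h each line held 1 count of it. Both first-set libraries of iFoxA1 stood well above the second-set library. Emp2 (chr16:10281749-10313968, minus strand), a tetraspan membrane protein of epithelia, was at 172, 174 and 90.7 CPM in iFoxA1 and 1.95 and 6.36 CPM in iFoxL2, a log2 difference of 5.01 ± 0.65 (adjusted p = 0.0191). Its 0 h levels were 7.26 and 7.46 CPM in iFoxA1 and 3.78 CPM in iFoxL2. Apob (chr12:7977648-8016835, plus strand) was at 47.1, 44.6 and 2.1 CPM in iFoxA1 and 0.668 and 0.188 CPM in iFoxL2, with a log2 difference of 5.43 ± 0.53 (adjusted p = 0.0118). The second-set iFoxA1 library thus held only a small part of the Apob level of the first.

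Gna14 (chr19:16435762-16610820, plus strand), a G-protein alpha subunit of the Gq class, was at 22.8, 20.8 and 10.5 CPM in iFoxA1 and 0.0514 and 0.219 CPM in iFoxL2. Its log2 difference of 6.56 ± 0.52 (adjusted p = 0.00841) had no counterpart at 0 h, when the lines held 1.58, 1.16 and 1.13 CPM. Zbtb16, a zinc-finger repressor also known as PLZF, was at 12, 10.7 and 1.87 CPM against 0.103 and 0.0313 CPM. Only 3 counts stood behind both iFoxL2 values, which gives a ratio of 118.1 with a 95% counting interval from 40.18 to 574.6. Popdc2, a membrane protein of the Popeye family, was at 23.3, 23.8 and 4.7 CPM against 0.257 and 0.125 CPM. Its log2 difference was 5.98 ± 0.33 (adjusted p = 0.00471).

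Cd177 (chr7:24743983-24760311, minus strand), a surface glycoprotein also known from neutrophils, was at 25.2, 26.5 and 5.71 CPM in iFoxA1 and 0 and 0.157 CPM in iFoxL2, a log2 difference of 6.95 ± 0.79 (adjusted p = 0.0148, and 0.0562 without iFoxA1 replicate 2). It is shown by sequence because, among the named genes with a RefSeq promoter window other than Foxa1 itself, it was the one whose window held the forkhead core TGTTTAC. The RefSeq bases before its start (chr7:24760312-24760561, minus strand, GRCm38.p6) are printed with that core in capitals, which begins 244 bases before the start.
Cd177: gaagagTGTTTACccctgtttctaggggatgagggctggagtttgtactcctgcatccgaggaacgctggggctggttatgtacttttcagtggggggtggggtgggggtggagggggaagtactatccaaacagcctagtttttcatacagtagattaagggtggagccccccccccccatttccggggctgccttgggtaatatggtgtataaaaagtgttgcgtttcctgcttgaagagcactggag
Over windows of 250 bases before to 50 after each start, searched on both strands, TGTTTAC was in 34 of 983 windows (3.46%) of genes higher in iFoxA1, 21 of 794 (2.64%) of genes higher in iFoxL2, and 388 of 14626 (2.65%) of all genes tested. For genes with a log2 difference of at least 2 it was in 11 of 267 windows (4.12%) on the iFoxA1 side and in 0 of 78 on the iFoxL2 side. In the whole RefSeq table it was in 1199 of 32851 windows (3.65%). A match describes these letters in the window and says nothing of binding.

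On the iFoxL2 side, the 15 genes taken by the same rule were Gcm1, Sall2, Wls, Oasl2, Gchfr, Wt1, Pmp22, Ctsw, Mmp25, Ephb6, Tmem54, Pcolce2, Kif1a, Tmem154 and Fgf15. Their log2 differences lay between −3.59 (Gcm1) and −2.59 (Fgf15), all nearer to 0 than the 4.96 of Tekt5, the last of the iFoxA1 genes. They include a trophoblast transcription factor (Gcm1), a gonadal and kidney factor (Wt1) and the carrier that brings Wnt ligands to the cell surface (Wls). In a list of other trophoblast genes, 2 of 18 tested members were higher in iFoxA1 and 0 in iFoxL2. Over all genes tested, the shares were 6.21% and 4.77%. The median log2 difference of that list was 0.05, and 0 of its calls remained without iFoxA1 replicate 1 or 2.

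Sall2 (chr14:52311172-52328762, minus strand), a zinc-finger factor of the Spalt family, was at 73.2 and 60.2 CPM in iFoxL2 and 8.26, 8.34 and 3.59 CPM in iFoxA1. The log2 difference was −3.53 ± 0.23 (adjusted p = 0.00558), and at 0 h the lines held 8.05 CPM against 4.92 and 6.01 CPM. Mmp25 (chr17:23628311-23645277, minus strand), a membrane-anchored matrix metalloproteinase, was at 33.2 and 23.3 CPM in iFoxL2 and 3.42, 3.1 and 3.56 CPM in iFoxA1, with a log2 difference of −3.07 ± 0.19 (adjusted p = 0.00558). Pcolce2 (chr9:95637601-95698096, plus strand), an enhancer of procollagen processing, was at 39.9 and 50.9 CPM in iFoxL2 and 6.44, 6.37 and 6.53 CPM in iFoxA1, a log2 difference of −2.78 ± 0.13 (adjusted p = 0.00344). For Pcolce2 the 24 h levels of iFoxL2 lay near those of both lines at 0 h (29.4 and 29.8 CPM in iFoxA1, 38.1 CPM in iFoxL2), and the iFoxA1 levels lay below all of them.

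Wt1 (chr2:105126529-105173616, plus strand) was at 21.6 and 5.83 CPM in iFoxL2 and 1.56, 1.91 and 1.08 CPM in iFoxA1, a log2 difference of −3.16 ± 0.33 (adjusted p = 0.0126). Wls was at 14 and 11.5 CPM in iFoxL2 and 1.26, 0.926 and 1.66 CPM in iFoxA1, a log2 difference of −3.28 ± 0.29 (adjusted p = 0.00935). The sets did not rank alike within iFoxL2: Wt1, Gcm1 and Pmp22 were higher in the first set, and Fgf15, Ctsw and Tmem154 in the second. Without iFoxA1 replicate 1, the calls of Pof1b, Tekt5, Gcm1, Oasl2, Ephb6, Tmem54, Kif1a, Tmem154 and Fgf15 were lost. Without replicate 2, those of Cd177, Lpar3 and Wt1 were lost as well.

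**Figure D1:**
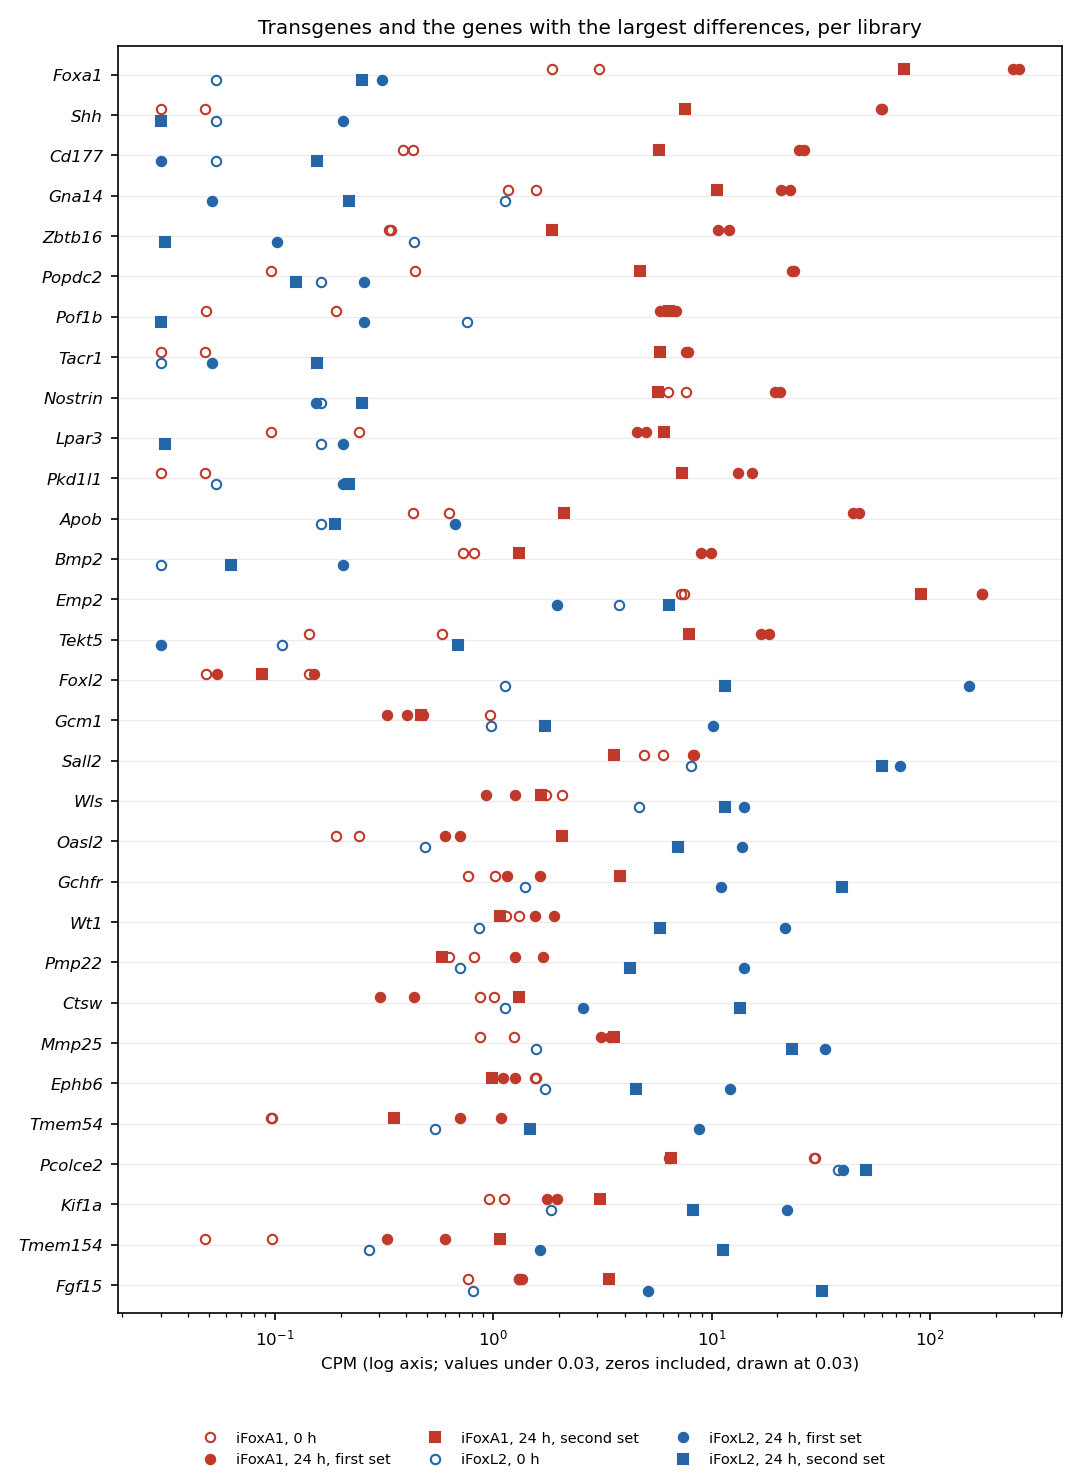
Level of each transgene and of named genes with the largest difference on each side, in CPM on a log axis, with 1 symbol per library (red iFoxA1, blue iFoxL2, open 0 h, filled circles first set and filled squares second set at 24 h). Foxa1 runs from 75.7 to 256 CPM in iFoxA1 at 24 h and Foxl2 from 11.5 to 151 CPM in iFoxL2, and second-set squares lie below first-set circles for most of the iFoxA1 genes.

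The node, notochord and floor plate genes that passed were all higher in iFoxA1. Of 19 tested members, 9 were higher in iFoxA1 and 0 in iFoxL2, and the median log2 difference of the 19 was 2.01, against −0.0035 over all genes tested. Of all genes tested, 6.21% were higher in iFoxA1 and 4.77% in iFoxL2. These shares also stand beside the counts of each later list at 24 h. Lhx1, a LIM homeodomain factor of the anterior streak and node, was at 70.5, 71.2 and 4.9 CPM in iFoxA1 and 2.93 and 0.376 CPM in iFoxL2, a log2 difference of 4.35 ± 0.23 (adjusted p = 0.00411). Foxj1, the master factor of motile cilia, was at 38.5, 41.4 and 25.8 CPM against 9.55 and 4.86 CPM, with a log2 difference of 2.21 ± 0.14 (adjusted p = 0.00558). Pkd1l1, the polycystin with which node cells read fluid flow, was at 13.1, 15.4 and 7.29 CPM against 0.205 and 0.219 CPM, with a log2 difference of 5.52 ± 0.34 (adjusted p = 0.00558). These 3 genes had 0 h levels of at most 0.054 CPM (Lhx1, Pkd1l1) or between 2.48 and 3.97 CPM (Foxj1). For Lhx1 and Pkd1l1, with at most 1 count in each 0 h library, the interaction did not pass (adjusted p = 0.161 and 0.17).

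Chrd, which encodes the BMP antagonist chordin, was at 15.1, 17.4 and 8.57 CPM in iFoxA1 and 1.8 and 1.94 CPM in iFoxL2, a log2 difference of 2.68 ± 0.31 (adjusted p = 0.0149). Ntn1, the floor plate guidance cue netrin, was at 13, 12.9 and 50.9 CPM against 1.54 and 12.1 CPM, a log2 difference of 2.51 ± 0.26 (adjusted p = 0.0124). Ntn1 differed from the genes before it in its course, since both lines held 54.4 to 63.4 CPM at 0 h and all 24 h libraries lay below that range. Sox9, a factor of notochord and of many epithelia, was at 4.28, 3.87 and 2.1 CPM against 0.205 and 0.0313 CPM (log2 difference 4.80 ± 0.49, adjusted p = 0.0124). Foxa2, the paralog of Foxa1, was at 1.81, 1.63 and 4 CPM against 0.154 and 0.251 CPM, and was already higher in iFoxA1 at 0 h (2.39 and 2.33 CPM against 0.216 CPM, adjusted p = 0.0469). The node genes T, Noto and Nog were too low to be tested. Of the 9 called members, 6 remained called without iFoxA1 replicate 1, 5 without replicate 2 and 8 with these replicates summed.

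In the Hedgehog pathway, whose ligand binds the receptor Patched and so releases Smoothened to act on Gli factors, 4 of 17 tested members were higher in iFoxA1 and 0 in iFoxL2, with a median log2 difference of 0.12. The ligand gene Shh stood out, as given above. Ihh, a second ligand, was at 1.06, 1.42 and 0.846 CPM against 0.0514 and 0 CPM. A single count stood behind the iFoxL2 values, for a ratio of 53.85 with a 95% counting interval from 9.378 to 2155. Hhip, a ligand-binding inhibitor, was at 1.61, 1.47 and 0.991 CPM against 0.0514 and 0.094 CPM (log2 difference 3.91 ± 0.55, adjusted p = 0.0214), and the co-receptor Cdon was at 33.2, 33.1 and 33.6 CPM against 21.4 and 23 CPM (0.59 ± 0.10, adjusted p = 0.0302).

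Of the standard response genes of the pathway, Hhip passed, as given above, and Ptch1 and Gli1 did not. Ptch1, which encodes the receptor and is itself a Hedgehog target, was at 192, 184 and 206 CPM in iFoxA1 and 56.3 and 156 CPM in iFoxL2 (log2 difference 1.13 ± 0.32, adjusted p = 0.0899). Gli1, a target that is also a pathway factor, had the opposite sign, with 1.56, 1.25 and 3.59 CPM in iFoxA1 and 8.53 and 6.74 CPM in iFoxL2 (−1.86 ± 0.43, adjusted p = 0.0576). For both genes the libraries of the lines did not overlap, as in 14.7% (iFoxA1 above) and 13.9% (iFoxL2 above) of all genes tested. Smo, Gli2 and Gli3 had adjusted p-values of 0.55, 0.693 and 0.335. Only 1 of the 4 called members, Shh, remained called without iFoxA1 replicate 1, without replicate 2, or with these summed.

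Primitive and visceral endoderm genes were also found mostly on the iFoxA1 side, and there most of the difference was already present at 0 h. At 24 h, 13 of 22 tested members were higher in iFoxA1 and 1 (Apoe) in iFoxL2, with a median log2 difference of 2.39. At 0 h, when 77 of 18831 genes (0.409%) were higher in iFoxA1, 12 of 22 members already were. Cubn, the endocytic receptor cubilin of yolk sac endoderm, was at 56.7 and 56.4 CPM in iFoxA1 and 0.432 CPM in iFoxL2 at 0 h, and at 108, 102 and 36 CPM against 3.85 and 1.13 CPM at 24 h. Its log2 difference was 7.01 at 0 h (adjusted p = 0.000353) and 4.85 ± 0.13 at 24 h (adjusted p = 0.00166), and the fall of the difference passed its own test (interaction −2.17, adjusted p = 0.0255). The 0 h value rests on 1 iFoxL2 library, as do the other 0 h calls of this list. Over all genes, most 0 h calls were lost when iFoxA1 replicate 1 or 2 was left out, as given below. Foxa1 itself was already detected in iFoxA1 at 0 h, as given above, and its part in these differences was not tested.

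The same order held for the factors that specify this lineage. Gata6 was at 11.6 and 13.5 CPM against 0.432 CPM at 0 h, and at 25.5, 24.1 and 15.3 CPM against 1.28 and 1.1 CPM at 24 h, a log2 difference of 4.04 ± 0.19 (adjusted p = 0.00344). Gata4 was at 12.9 and 13.1 CPM against 1.03 CPM at 0 h, and at 10.6, 10.1 and 8.69 CPM against 1.75 and 2.04 CPM at 24 h, a log2 difference of 2.34 ± 0.22 (adjusted p = 0.0108). Sox17 was at 6.31 and 5.77 CPM in iFoxA1 at 0 h and at 4.33, 4.36 and 1.95 CPM at 24 h, against 0.411 and 0.094 CPM in iFoxL2 at 24 h. At 0 h iFoxL2 held 2 counts of Sox17, a ratio of 55.91 with a 95% counting interval from 15.32 to 464.2.

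Of 18 tested basement membrane genes, 3 were higher in iFoxA1 (Col4a1, Col4a2, Lama1) and 1 in iFoxL2 (Lama5) at 24 h, and 5 were higher in iFoxA1 at 0 h. The list as a whole had a median log2 difference of −0.13 at 24 h, with all iFoxA1 libraries above both of iFoxL2 in 5 members and below them in 6. Over all genes tested the libraries lay apart in these directions in 14.7% and 13.9%. Col4a1 was at 227 and 226 CPM against 18.7 CPM at 0 h and at 386, 384 and 451 CPM against 38.6 and 59.1 CPM at 24 h (log2 difference at 24 h 3.14 ± 0.12, adjusted p = 0.00325). Col4a2, its partner chain of type IV collagen, was at 126 and 118 CPM against 8.48 CPM at 0 h and at 144, 142 and 158 CPM against 20.6 and 25.5 CPM at 24 h (2.72 ± 0.09, adjusted p = 0.00262). Lama1, the laminin alpha chain of early basement membranes, was at 206 and 211 CPM against 37.1 CPM at 0 h and at 99.5, 98.4 and 73.5 CPM against 14.9 and 7.14 CPM at 24 h (2.99 ± 0.18, adjusted p = 0.00558). Both collagen genes stood higher at 24 h than at 0 h in each line, while Lama1 stood lower in each. Lama5, the laminin chain of many epithelia, went the other way, with 310 and 388 CPM in iFoxL2 and 145, 163 and 243 CPM in iFoxA1 (−0.87 ± 0.11, adjusted p = 0.0192), and had no such difference at 0 h (117 CPM against 116 and 124 CPM).

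For 4 members of the primitive endoderm list the line difference was smaller at 24 h than at 0 h by the interaction test (125 of 18831 genes, 0.664%, were called in that direction), and for 0 it was larger. Pdgfra, the receptor that marks this lineage, was one of them, at 23.4 and 25 CPM against 0.81 CPM at 0 h and at 12.3, 13.8 and 5.31 CPM against 1.49 and 0.658 CPM at 24 h (interaction −1.82, adjusted p = 0.0452). Of the 14 called members at 24 h, 9 remained called without iFoxA1 replicate 1, 7 without replicate 2 and 12 with these summed.

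Definitive and foregut endoderm genes overlapped with both groups. Of 15 tested members besides Foxa1, 9 were higher in iFoxA1 and 1 (Epcam) in iFoxL2, with a median log2 difference of 2.48. Of the 9, Gata6, Gata4, Sox17, Foxa2 and Sox9 have been given, and 5 were already called at 0 h in the 17 members tested there. Cer1, a secreted Nodal, BMP and Wnt antagonist of anterior endoderm, was at 3.98, 4.25 and 0.35 CPM against 0.205 and 0 CPM (log2 difference 4.47 ± 0.56, adjusted p = 0.0179), with 0 to 0.0956 CPM at 0 h. Cxcr4, a chemokine receptor used to sort definitive endoderm, was at 1.71, 1.47 and 4.34 CPM against 0.308 and 0.721 CPM (2.48 ± 0.33, adjusted p = 0.0197). Prox1, a factor of the liver bud, was at 5.08, 4.74 and 2.04 CPM against 1.7 and 0.313 CPM (1.95 ± 0.37, adjusted p = 0.0387). Of the 10 called members, 3 remained called without iFoxA1 replicate 1, 2 without replicate 2 and 6 with these summed.

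Of the genes of hepatocytes and gut epithelium, 9 of 23 listed, including Alb, Afp and Fabp1, were too low to be tested. Of the 14 tested, 3 were higher in iFoxA1 (Apob, Cdx2, Ttr) and 1 in iFoxL2 (Apoe), with a median log2 difference of 0.53. Cdx2, a factor of hindgut and trophoblast, was at 5.99, 5.61 and 1.43 CPM against 0.719 and 0.0313 CPM (3.51 ± 0.52, adjusted p = 0.0241). Ttr, a plasma carrier protein made by liver and yolk sac, was at 0.604, 1.03 and 0.292 CPM in iFoxA1 and had 0 counts in both iFoxL2 libraries, which makes it at least 9.683-fold higher when iFoxL2 is set to a floor of 3 counts for both libraries together. Of the 4 called members, 1 remained called without iFoxA1 replicate 1, without replicate 2, or with these summed, and 2 in the fit to all 11 libraries at 24 h, which takes in the other lines of the series. In the streak and mesoderm list, 3 of 12 tested members were higher in iFoxA1 (Lhx1, Pdgfra, Gata4) and 0 in iFoxL2, and T, Mesp1 and Tbx6 were too low to be tested.

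**Figure D2:**
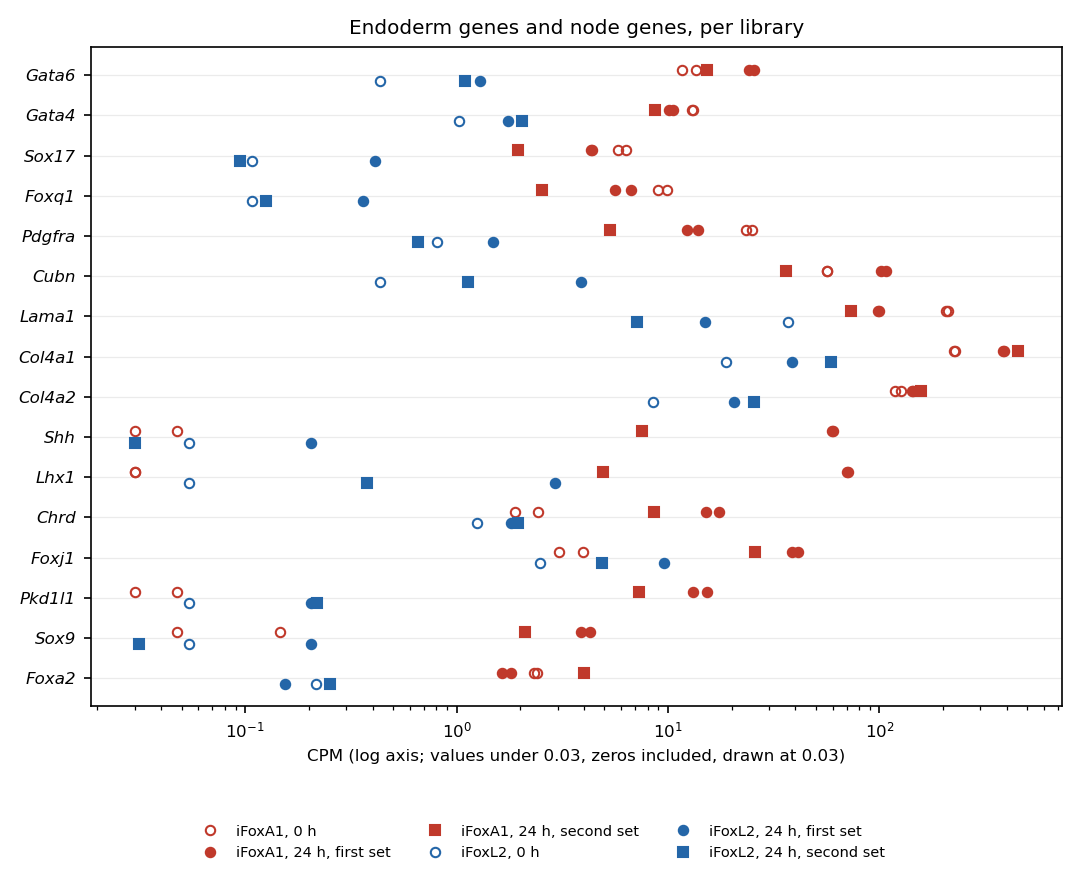
Level of endoderm genes (upper rows) and node genes (lower rows) in CPM on a log axis, 1 symbol per library, coloured and shaped by line, time and library set. Gata6, Cubn, Col4a1 and the other endoderm genes are separated between the lines already at 0 h (open symbols), whereas Shh, Lhx1 and Pkd1l1 have open symbols at or near the lower edge in both lines and filled symbols that are separated at 24 h.

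Formative and primed epiblast genes, which cells switch on as they leave the naive state, were found mostly on the iFoxL2 side among those that passed. Of 19 tested members, 6 were higher in iFoxL2 and 1 in iFoxA1, and the median log2 difference was −0.50. Pou3f1 (Oct6), a POU factor of the post-implantation epiblast, was at 51.4 and 53.8 CPM in iFoxL2 and 9.16, 10.1 and 10.7 CPM in iFoxA1, a log2 difference of −2.38 ± 0.11 (adjusted p = 0.00344). It had been at 1.6 to 1.89 CPM in both lines at 0 h, so both lines stood higher at 24 h, and the interaction passed (−2.21, adjusted p = 0.0198). Fgf5, the classical marker of primed epiblast, was at 9.09 and 23.2 CPM against 3.32, 3.43 and 3 CPM (−2.12 ± 0.38, adjusted p = 0.0346). Cdh2 (N-cadherin) was at 27.2 and 8.21 CPM against 5.59, 6.1 and 4.14 CPM (−1.72 ± 0.30, adjusted p = 0.0334), and Sall2 and the epithelial factor Grhl2 were the other large members. Otx2 had 52 and 372 CPM in iFoxL2 and 41.6, 37.9 and 161 CPM in iFoxA1 and did not pass (−0.76 ± 0.20, adjusted p = 0.076). The exception was Etv4, an ERK-responsive ETS factor, at 101, 99.7 and 107 CPM in iFoxA1 and 51.1 and 66 CPM in iFoxL2 (0.85 ± 0.10, adjusted p = 0.016). Of the 7 called members, 3 remained called without iFoxA1 replicate 1, 2 without replicate 2 and 3 with these summed.

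Among 17 naive pluripotency genes, 3 were higher in iFoxA1, 1 was higher in iFoxL2, and the median was 0.13. Over all genes tested, 6.21% and 4.77% were called in these directions. Klf4 was at 57.4, 59.6 and 227 CPM in iFoxA1 and 17.4 and 89.5 CPM in iFoxL2, a log2 difference of 1.56 ± 0.12 (adjusted p = 0.00841), and the line difference was larger than at 0 h (interaction 1.39, adjusted p = 0.0288). Tfcp2l1 was at 96.3, 94.1 and 307 CPM against 37.2 and 177 CPM (1.10 ± 0.15, adjusted p = 0.0204). Esrrb was at 174, 175 and 716 CPM against 66.7 and 468 CPM (1.04 ± 0.19, adjusted p = 0.0363). For all 3 of these genes the groups overlap without regard to set, with the second-set iFoxL2 library above the first-set iFoxA1 libraries. Nanog did not pass, with 52, 50.7 and 293 CPM in iFoxA1 and 95.2 and 208 CPM in iFoxL2 (adjusted p = 0.547). Of the 4 called members, 1 remained called without iFoxA1 replicate 1, without replicate 2, or with these summed. None (0 of 4) remained called in the fit to all 11 libraries at 24 h.

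Most of the epithelial junction and polarity genes that passed were higher in iFoxL2. Of 29 tested members, 7 were higher in iFoxL2 and 1 in iFoxA1, the median log2 difference was −0.61, and in 13 members both iFoxL2 libraries lay above all 3 of iFoxA1, as they did in 13.9% of all genes tested. Dsp, the desmosome linker desmoplakin, was at 173 and 69.5 CPM in iFoxL2 and 63.2, 58.1 and 30.4 CPM in iFoxA1 (−1.38 ± 0.11, adjusted p = 0.00841). Grhl2, a factor that drives epithelial genes, was at 53.4 and 72.2 CPM against 25.8, 25.1 and 26.6 CPM (−1.24 ± 0.12, adjusted p = 0.011). Epcam, an epithelial adhesion molecule, was at 160 and 177 CPM against 83.7, 89.2 and 109 CPM (−0.81 ± 0.09, adjusted p = 0.0141). Jup, Cgn, Tjp3 and Esrp2, which encode plakoglobin, cingulin, a zonula occludens protein and a splicing regulator of epithelia, were the other 4.

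The exception on the iFoxA1 side was Esrp1, the closest relative of Esrp2, at 104, 102 and 74.3 CPM in iFoxA1 and 68 and 47 CPM in iFoxL2 (0.62 ± 0.08, adjusted p = 0.0192). At 0 h it had been lower in iFoxA1, at 7.98 and 7.95 CPM against 16.1 CPM (−1.01, adjusted p = 0.0328), so the order of the lines turned (interaction 1.64, adjusted p = 0.0179). Cdh1, the E-cadherin gene, was at 416, 413 and 549 CPM in iFoxA1 and 459 and 625 CPM in iFoxL2 and did not pass (adjusted p = 0.183). Of the 8 called members, 2 remained called without iFoxA1 replicate 1, 1 without replicate 2, 2 with these summed, and 5 in the fit to all 11 libraries at 24 h.

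In the BMP pathway, 4 of 22 tested members were higher in iFoxA1 and 2 in iFoxL2 (6.21% and 4.77% of all genes tested), with a median log2 difference of −0.08. Among ligands, Bmp2 was at 8.91, 9.97 and 1.31 CPM in iFoxA1 and 0.205 and 0.0627 CPM in iFoxL2 (5.10 ± 0.40, adjusted p = 0.00841), and Bmp7 was at 23.5, 27.1 and 10.9 CPM against 3.49 and 4.98 CPM (2.04 ± 0.44, adjusted p just under 0.05). The type I receptor gene Acvr1 was at 10.2, 10.1 and 9.04 CPM against 4.47 and 4.23 CPM (1.14 ± 0.17, adjusted p = 0.0241), and the antagonist Chrd has been given. The target genes Id1 and Id2 went the other way. Id1 was at 106 and 52.8 CPM in iFoxL2 and 40.2, 48.8 and 23.6 CPM in iFoxA1 (−1.22 ± 0.12, adjusted p = 0.011), with like levels at 0 h (30.5, 29.3 and 29.7 CPM) and an interaction that passed (−1.23, adjusted p = 0.0394). Id2 was at 22.6 and 16.8 CPM against 5.29, 5.83 and 10.2 CPM (−1.47 ± 0.32, adjusted p = 0.0495). Id3, with 60.5 and 36 CPM in iFoxL2 and 49.6, 50.1 and 30.6 CPM in iFoxA1, did not pass (adjusted p = 0.115). Of the 6 called members, 2 remained called without iFoxA1 replicate 1 or 2.

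In the FGF list, 5 of 24 tested members were higher in iFoxA1 and 6 in iFoxL2 (6.21% and 4.77% of all genes tested). Ligands and response genes were found on both sides. The ligand Fgf15 was at 5.14 and 31.9 CPM in iFoxL2 and 1.36, 1.31 and 3.38 CPM in iFoxA1 (−2.59 ± 0.34, adjusted p = 0.0194). Fgf17 was at 1.49 and 5.36 CPM against 0.453, 0.218 and 0.583 CPM (−2.67 ± 0.45, adjusted p = 0.031), and Fgf4 and Fgf5 were also higher in iFoxL2. Fgf1 was higher in iFoxA1, at 4.33, 4.9 and 6.56 CPM against 1.8 and 2.16 CPM (1.47 ± 0.24, adjusted p = 0.028). Of the genes that respond to ERK, Egr1 (16.9, 16.1 and 8.89 CPM against 5.8 and 2.48 CPM, 1.65 ± 0.17, adjusted p = 0.013), Etv1, Etv4 and Spred1 were higher in iFoxA1. The ERK feedback inhibitors Dusp5 and Spry2 were higher in iFoxL2. None of these 11 remained called without iFoxA1 replicate 1 or 2 (0 each), and 1 did with these summed.

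In the Nodal list, 3 of 22 tested members were higher in iFoxA1 (Cer1, Cfc1, Furin) and 1 in iFoxL2 (Foxh1). For this list and the Wnt list, the shares over all genes tested were 6.21% higher in iFoxA1 and 4.77% higher in iFoxL2. Furin, the protease that matures TGF-beta ligands, was at 43.6, 43.5 and 50.3 CPM against 11.9 and 24.4 CPM (1.49 ± 0.21, adjusted p = 0.0223), and Foxh1, the forkhead partner of Smad proteins, was at 71.3 and 107 CPM in iFoxL2 against 44, 40 and 64.5 CPM (−0.75 ± 0.09, adjusted p = 0.0158). The feedback inhibitor Lefty1 was at 62.8, 64 and 28 CPM in iFoxA1 and 5.29 and 16.5 CPM in iFoxL2 but did not pass (2.19 ± 0.71, adjusted p = 0.113). In the Wnt list, 3 of 20 tested members were higher in iFoxL2 (Nkd1, Tcf7, Sfrp1) and 1 in iFoxA1, the antagonist Dkk1 (1.91, 2.4 and 0.554 CPM against 0.257 and 0 CPM, 3.59 ± 0.72, adjusted p = 0.0431). Dkk1 was higher in iFoxA1 at 0 h too, at 6.26 and 7.37 CPM against 2 counts in iFoxL2, a ratio of 63.03 with a 95% counting interval from 17.29 to 523. None of the called members of either list (0 of 4 in each) remained called without iFoxA1 replicate 1 or 2, and 2 of the 4 in the Wnt list remained in the fit to all 11 libraries at 24 h.

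In the retinoic acid list, 4 of 17 tested members were higher in iFoxA1 and 0 in iFoxL2, with a median of 0.39. They were Dhrs3, a reductase that limits retinoic acid synthesis, the binding protein gene Crabp2, the degrading enzyme gene Cyp26a1 and the receptor gene Rarb. Dhrs3 was at 5.64, 5.61 and 12.5 CPM against 1.49 and 4.23 CPM (1.74 ± 0.21, adjusted p = 0.0163), and Crabp2 at 11.6, 10.5 and 4.84 CPM against 4.67 and 1.66 CPM (1.36 ± 0.20, adjusted p = 0.0234). In the Notch list, Hey1, Hes1 and Maml1 were higher in iFoxA1 and 0 of 15 in iFoxL2, while the median of the list was −0.45. There, all iFoxA1 libraries lay above both of iFoxL2 in 1 member and below them in 5, against 14.7% and 13.9% of all genes tested. None of these 7 calls remained without iFoxA1 replicate 1 or 2 (0 of 4 and 0 of 3), and in the fit to all 11 libraries at 24 h 1 remained in each list.

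Granulosa and gonadal genes, the list for the tissue in which FoxL2 is best known, showed no common direction. Of 25 listed besides Foxl2, 12 could be tested, 2 were higher in iFoxL2 (Wt1, Dmrt1) and 2 in iFoxA1 (Gata4, Sox9), and the median log2 difference was −0.25. Dmrt1, a testis factor that acts against FoxL2 in the gonad and is also expressed in germ and ES cells, was at 38.2 and 83.3 CPM in iFoxL2 and 11.7, 10.7 and 44.6 CPM in iFoxA1 (−1.39 ± 0.21, adjusted p = 0.0253). The defining granulosa genes were at or near 0: Cyp19a1 and Fshr had 0 CPM in both iFoxL2 libraries, Nr5a1 0 and 0.0313 CPM, and Amh 0.411 and 0.282 CPM. Of the 4 called members, 2 remained called without iFoxA1 replicate 1 and 0 without replicate 2.

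Of the fibroblast, smooth muscle and feeder markers, 7 of 19 were too low to be tested, 1 was higher in iFoxA1 (Thy1) and 2 in iFoxL2 (Myl9, Cnn1). The median log2 difference of the 12 tested was −1.37, the lowest of all lists. Both iFoxL2 libraries lay above all of iFoxA1 in 3 members and the reverse held in 1, against 13.9% and 14.7% of all genes tested. Thy1 was at 15.6, 15.2 and 11.1 CPM against 2.16 and 1.88 CPM (2.70 ± 0.18, adjusted p = 0.0061). Myl9, a smooth muscle myosin light chain, was at 52 and 11.6 CPM in iFoxL2 against 8.1, 10.8 and 5.86 CPM (−1.87 ± 0.36, adjusted p = 0.0391), and at 0 h it was at 16.6 CPM against 2.06 and 2.04 CPM. The first iFoxL2 library held 94.2 CPM of Tagln and 23.6 CPM of Acta2, against 3.1 and 1.32 CPM in the second, and neither gene passed. Dcn, Lum and Postn were at 0.514 CPM or less in all 5 libraries, and the blood marker Ptprc at 0.154 CPM or less. Of the 3 called members, 1 remained called without iFoxA1 replicate 1, without replicate 2, or with these summed. The part of these markers in the other differences was not tested.

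**Figure D3:**
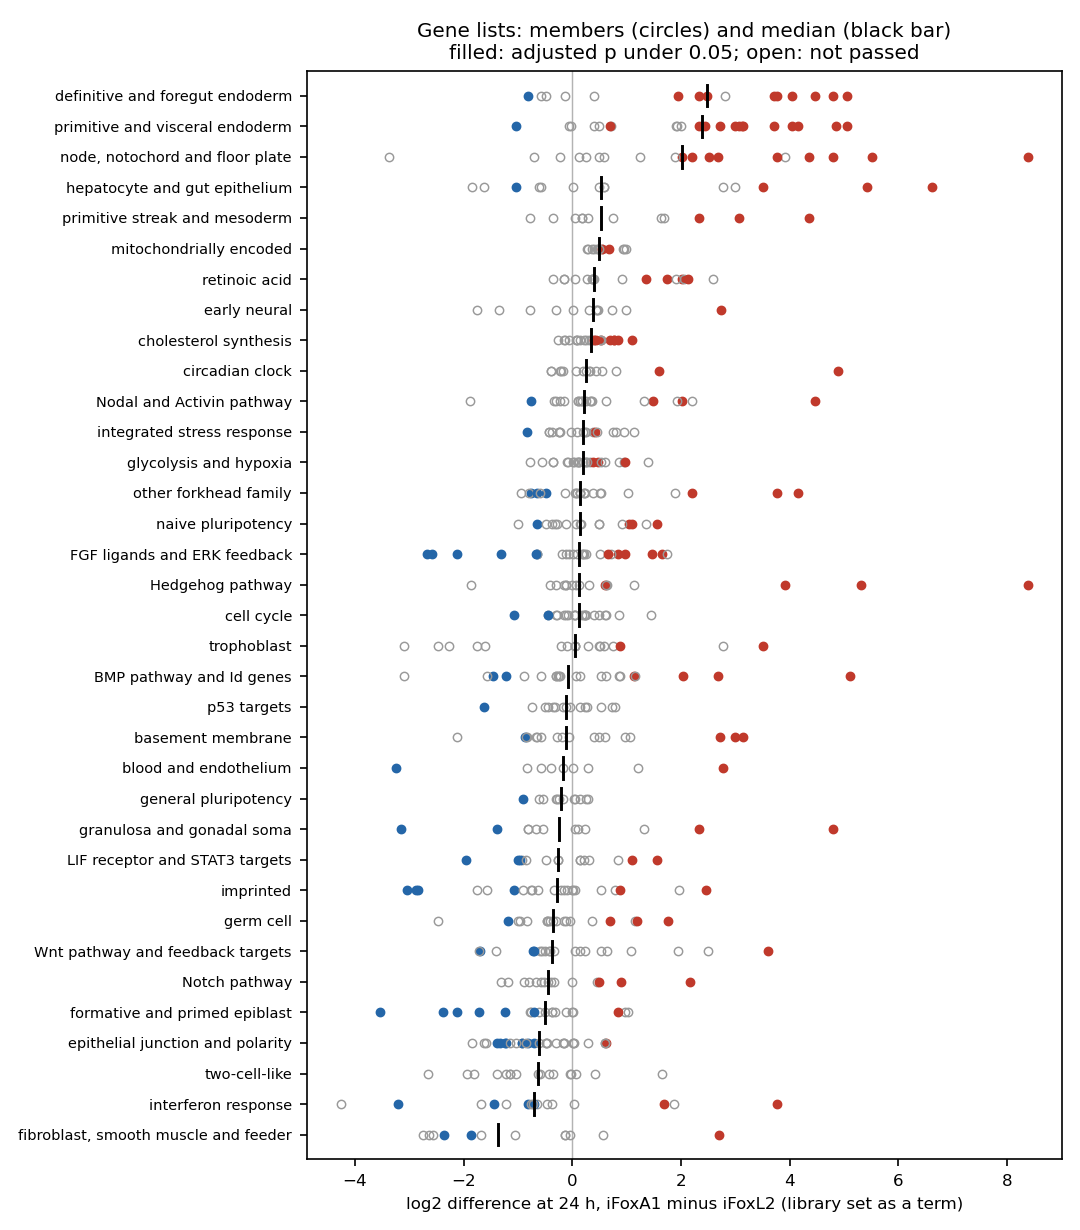
Log2 difference at 24 h (iFoxA1 minus iFoxL2, library set as a term) of every tested member of each gene list (circles, filled where the adjusted p was under 0.05) with the list's median (black bar), lists ordered by median. Definitive endoderm (median 2.48), primitive endoderm (2.39) and node genes (2.01) lie at the top, and the fibroblast, smooth muscle and feeder (−1.37), interferon response (−0.71), two-cell-like (−0.64, with 0 of 17 called), epithelial junction (−0.61) and formative epiblast lists (−0.50) have the lowest medians.

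At 0 h, 113 of 18831 genes (0.6%) differed between the lines, 77 higher in iFoxA1 and 36 higher in iFoxL2 (0.191%). Of these, 64 were also called in the same direction at 24 h, which is 56.6% of the 0 h calls and 3.49% of the 24 h calls, and 2 were called in the opposite direction. The 0 h test shares its fit with the 24 h libraries and assumes that the single iFoxL2 library varies like the others. The count was 6 to 10 when any 1 of iFoxA1 replicates 1 or 2 at either time was left out, and 5145 to 5197 when a library of the second set or iFoxL2 replicate 1 at 24 h was.

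The difference between the lines at 24 h exceeded or fell below that at 0 h in 307 genes (1.63%), 182 upward (0.966%) and 125 downward. Pof1b, an actin-binding protein of epithelial junctions, had the largest upward value among the 16 genes named for this test (8.45 ± 1.39, adjusted p just under 0.05), at 6.9, 5.83 and 6.42 CPM in iFoxA1 and 0.257 and 0 CPM in iFoxL2 at 24 h, and 0.191 and 0.0485 against 0.756 CPM at 0 h. Fam102b was at 116, 115 and 40.8 CPM in iFoxA1 and 6.73 and 1.13 CPM in iFoxL2 at 24 h, and at 1.86, 2.08 and 1.89 CPM at 0 h (interaction 4.41 ± 0.50, adjusted p = 0.0251). Stat4, a cytokine-signalling factor, was at 38, 36.3 and 20.3 CPM against 4.83 and 2.66 CPM at 24 h, and had been lower in iFoxA1 at 0 h (4.83 and 4.51 CPM against 8.86 CPM). Its interaction of 3.86 ± 0.17 had the smallest adjusted p of those 16 (0.00814).

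In the downward direction, Tgfbi, a secreted matrix protein, turned its order: it was at 6.98 and 7.42 CPM in iFoxA1 and 1.57 CPM in iFoxL2 at 0 h, and at 1.01, 1.8 and 2.6 CPM against 8.73 and 7.61 CPM at 24 h (interaction −4.34 ± 0.60, adjusted p = 0.0369). Lrrc8c, a subunit of volume-regulated anion channels, was at 4.01 and 3.78 CPM against 0.864 CPM at 0 h and at 4.03, 4.41 and 1.98 CPM against 10.3 and 5.61 CPM at 24 h (−3.54 ± 0.33, adjusted p = 0.0196). Car4, a membrane-bound carbonic anhydrase, was at 21.8 and 31.1 CPM in iFoxL2 and 5.59, 5.01 and 3.79 CPM in iFoxA1 at 24 h, with 0.972 to 1.6 CPM at 0 h (−3.14 ± 0.50, adjusted p = 0.0474). For Shh the interaction did not pass (adjusted p = 0.116), and each line held 1 count at 0 h. Without iFoxA1 replicate 1 or 2 at either time, 0 genes passed the interaction test by edgeR (2016 to 2734 at an unadjusted p under 0.05).

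**Figure D4:**
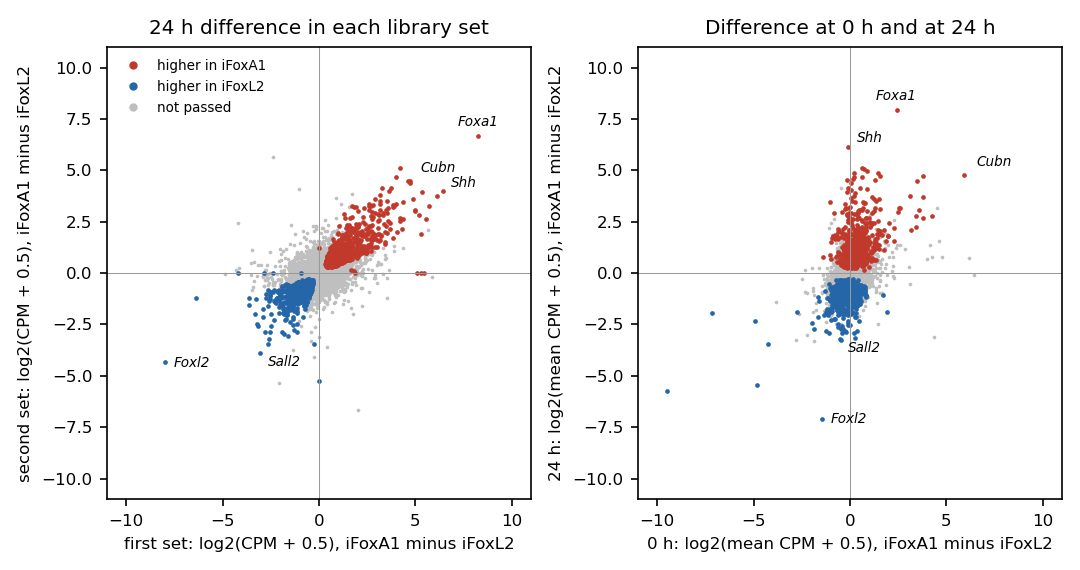
Left, the 24 h difference (log2(CPM + 0.5), iFoxA1 minus iFoxL2) in the first library set against that in the second, for 11292 genes with at least 5 CPM (r = 0.5641). Right, the difference at 0 h against that at 24 h, with genes called at 24 h in red (higher in iFoxA1) or blue (higher in iFoxL2). Cubn lies far to the right at both times, whereas Shh and Sall2 lie near 0 on the 0 h axis.

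The differences were not spread evenly over the chromosomes. Over protein-coding genes averaging 5 CPM or more across the 17 libraries, each library centred on its median gene, the median log2 difference (iFoxA1 minus iFoxL2) of chromosome 8 was −0.241 at 0 h, −0.266 in the first set and −0.55 in the second set at 24 h (562 genes). That of chromosome 14 was −0.266, −0.217 and −0.538 (368 genes). All other autosomes lay between −0.113 and 0.127 in these 3 comparisons. In the second set, only 8.54% of the genes of chromosome 8 and 7.07% of those of chromosome 14 were higher in iFoxA1. Against the mean of the 3 other lines of the series, iFoxL2 stood at 0.159, 0.148 and 0.401 on chromosome 8 and at 0.195, 0.128 and 0.518 on chromosome 14, while iFoxA1 stood at −0.133 to −0.0296 on both.

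These 2 chromosomes held 245 of the 796 genes higher in iFoxL2 (30.8%), with 16.5% of their tested genes called in that direction against 3.62% on all other chromosomes. The median log2 difference of those 245 genes was −0.768, and 76 had a difference of at least 1. Away from chromosomes 8 and 14, 551 genes were higher in iFoxL2 and 996 in iFoxA1. Sall2, Fgf17, Spry2, Junb, Nkd1, Sfrp1, Esrp2, Slc7a5 and Bst2 lie on them, and the part of the chromosome's shift in their differences was not tested. Pou3f1, Pcolce2, Wls, Wt1, Dsp, Grhl2 and Id1 lie on other chromosomes.

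Chromosome 12, which carries Foxa1 and the imprinted Dlk1 to Dio3 cluster, had more calls in both directions, with 81 of 655 tested genes (12.4%) higher in iFoxA1 and 45 (6.87%) higher in iFoxL2. It also held 17 of the 77 genes higher in iFoxA1 at 0 h. When its genes were split into 4 groups of 90 by position, the median difference at 0 h was 0.385 in the first group (gene starts from 3247428 to 44221370) and 0.0221, −0.21 and −0.0367 in the next 3. At 24 h the first group stood at 0.257 in the first set and 0.31 in the second.

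**Figure D5:**
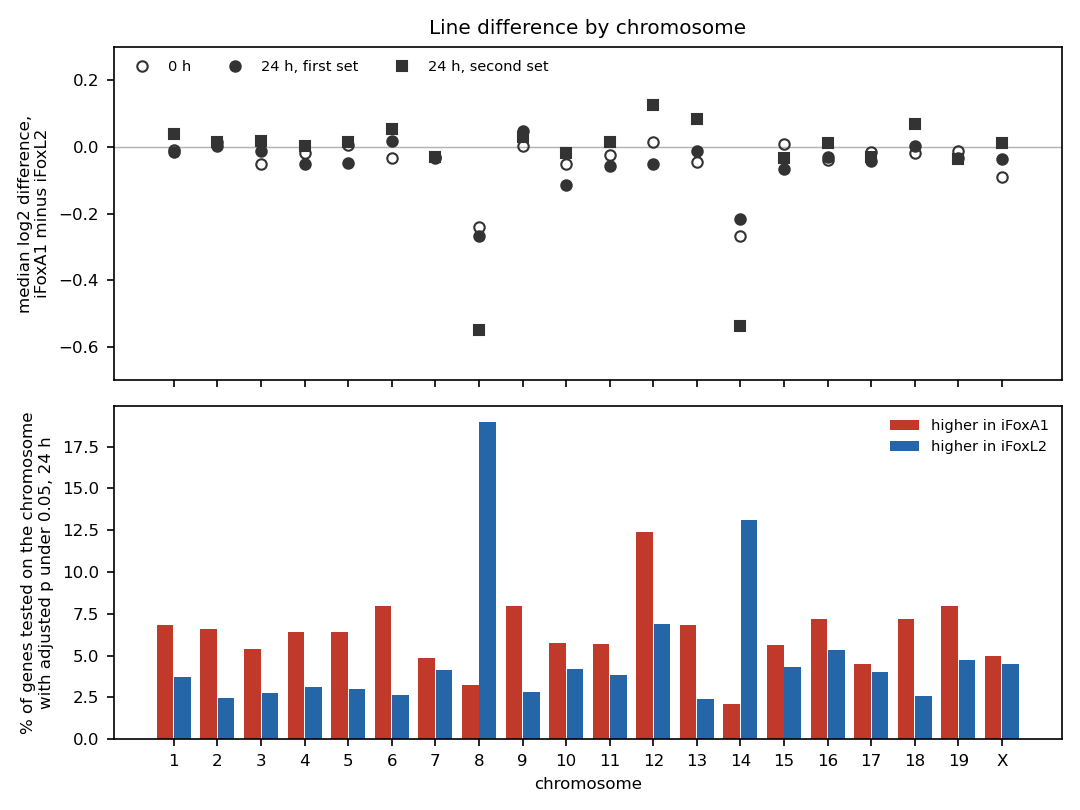
Upper plot, median log2 difference (iFoxA1 minus iFoxL2) of the protein-coding genes of each chromosome at 0 h (open circles) and in each library set at 24 h (filled). Lower plot, percentage of each chromosome's tested genes called higher in iFoxA1 (red) or iFoxL2 (blue) at 24 h. Chromosomes 8 and 14 lie below all others in the upper plot and have the 2 highest blue bars (19% and 13.1%).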

How the data were processed

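The authors quantified transcripts per library with Salmon 1.4.0 and also used DESeq2 1.30.1 and the mm10 build, per the submitters' processing notes, and no annotation is named in the sources used here. The authors deposited an estimated count for each transcript without normalisation. They also deposited TPM values, scaled to transcript length and to the library total. Of 137271 transcripts, 137225 were matched by identifier to GENCODE M21 (GRCm38). The 46 others held at most 0.0133% of a library and were left out. Estimated counts were summed per gene (53693 genes) and rounded.

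The main fit was edgeR 4.0.16 (R 4.3.3) with TMM scaling, filterByExpr, the quasi-likelihood test and Benjamini-Hochberg adjustment over all genes tested at 0.05, on the 5 libraries at 24 h with line and library set (over or under 30 M counts) as terms. It left 2 residual degrees of freedom. The 0 h difference and the interaction (24 h difference minus 0 h difference) came from an 8-library fit with 4 groups and the set, on 18831 genes. SE values derive from the F statistic, and n is 3 and 2 libraries at 24 h. The main fit was also run on simulated counts, which held no library set effect. Counting intervals are exact at 95% and, like the floor of 3 counts, cover counting error only. Alternatives with DESeq2 1.42.0, limma 3.58.1 on log2(TPM + 1), other scalings, filters and library choices were run.

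Replicate numbers cross the library sets at 24 h: replicates 1 of both lines share a set, and replicates 2 do not. Deviations from the line means correlated at 0.6821 for both replicates 1, and at −0.6807 for both replicates 2. With 2 iFoxL2 libraries the deviations mirror each other, so the signs follow the sets and cannot show pairing within a set. The members and gene lists were chosen with earlier results of these data known. Genes withheld from this text are counted but not reported here. Named genes are the transgenes, the 15 largest differences per direction among protein-coding genes with a gene name, at least 5 CPM, no overlap between lines and the same direction in each set, up to 6 members per list with the smallest p, and up to 8 per direction by interaction. List members beyond these 6, marker genes, and members given because they did not pass were named after their values were seen. The comparison by chromosome was added after the data were seen. Where near-identical gene copies exist, Salmon may split reads between them.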

Additional observations from a re-analysis of the deposited data

Results flagged for a closer look

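For 16 genes the difference between the lines at 24 h differed from that at 0 h by the interaction test in edgeR, with the largest such values among genes that also passed at 24 h. The interaction (log2 difference at 24 h minus that at 0 h, iFoxA1 minus iFoxL2) was positive for Pof1b (8.448), Zbtb16 (6.75), Gna14 (6.281), Fam102b (4.411), Stat4 (3.859), Alox15 (3.769), Insm1 (3.513) and Pcsk1 (3.41). It was negative for Tgfbi (−4.344), Wt1 (−3.659), Lrrc8c (−3.544), Car4 (−3.138), Pmp22 (−3.133), Sall2 (−2.969), Ctsw (−2.829) and Gchfr (−2.521). Insm1 and Pcsk1, a factor and a prohormone convertase of endocrine cells, were at 7.1, 7.14 and 2.33 CPM and at 5.69, 4.9 and 5.77 CPM in iFoxA1 at 24 h, against 1.8 and 0.658 CPM and 0.719 and 1.22 CPM in iFoxL2. Alox15, a lipoxygenase, was at 22.4, 22.7 and 9.8 CPM against 2.93 and 0.815 CPM.

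All 16 values rest on 1 iFoxL2 library at 0 h. Zbtb16 and Pof1b had 3 and 5 counts in both iFoxL2 libraries at 24 h, so the size of their fitted values depends on few counts. None of the 16 passed without iFoxA1 replicate 1 or 2 at either time (0 of 16 in each case).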

How the results depend on the processing

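All 32 named genes (transgenes and 15 per direction) kept their sign under every alternative. For the 15 per direction this is no finding, because their rule asked for non-overlapping libraries and the same direction in each set. Of the 32 genes, 23 kept their call at 24 h without iFoxA1 replicate 1 and 20 without replicate 2. With these summed as 1 library (chosen after seeing the data), 25 kept it. The call was kept by 3 with limma on TPM, 1 with no term for the library set and 0 with the replicate number as a block. All 32 kept it in the remaining alternatives. Of the 1833 genes called at 24 h, DESeq2 called 1793, the fit to all 11 libraries at 24 h 1341, and the fit with DESeq2 size factors 1813.

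The count at 24 h was 7 with no set term, 8378 in the first set alone, 3850 in the 8-library fit, 288 with the replicates summed and 126 with limma on TPM. With replicate numbers as a block, which pairs libraries of different sets, it was 0 by edgeR (2192 at an unadjusted p under 0.05). Leaving out 1 library gave 139 to 8505. At 0 h (113) the count was 1 with no set term, 5223 in the first set alone, 29 with all 17 libraries and 1026 with DESeq2, and 6 to 5197 leaving out 1 library. For the interaction (307) it was 0 with no set term (936 unadjusted), 5209 in the first set alone, 93 with all 17 libraries, 1120 with DESeq2, 164 with no filter on low counts, and 0 to 5154 leaving out 1 library. At 24 h, fits that leave out a second-set library or iFoxL2 replicate 1 take their spread from iFoxA1 replicates 1 and 2 alone. Those without iFoxA1 replicate 1 or 2, or with these summed, take it only from how the line difference varies between the library sets. The causes of the other changes were not tested. The 24 h fit has 2 residual degrees of freedom and 2 iFoxL2 libraries, and depth limits the size of differences for genes with few iFoxL2 counts (Zbtb16 with 3, Ihh with 1, Ttr with 0).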

Other observations

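Outside the groups above, cholesterol synthesis genes that passed were all higher in iFoxA1, 8 of 23 tested and 0 in iFoxL2, with a median log2 difference of 0.35. In 11 of the 23, all 3 iFoxA1 libraries lay above both of iFoxL2, as in 14.7% of all genes tested. Insig1, a sterol-regulated brake on the pathway, was at 124, 122 and 137 CPM against 51.4 and 74.1 CPM (1.09 ± 0.12, adjusted p = 0.013). None of the 8 remained called without iFoxA1 replicate 1 or 2 (0 each), and 1 did with these summed. In the circadian list, 2 of 15 passed, and the period gene Per2 was at 54.6, 55.3 and 74 CPM in iFoxA1 and 2.57 and 1.69 CPM in iFoxL2 (4.89 ± 0.28, adjusted p = 0.00517), with 0.378 to 0.485 CPM at 0 h. It remained called without either replicate.

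Imprinted genes gave 4 members higher in iFoxL2 and 2 in iFoxA1 of 22 tested. The noncoding RNAs Meg3, Rian and Mirg, which are expressed from the maternal copy of 1 cluster on chromosome 12, were all higher in iFoxL2. Rian was at 268 and 146 CPM in iFoxL2 and 37.2, 37.4 and 19.4 CPM in iFoxA1 (−2.87 ± 0.08, adjusted p = 0.00166), and at 0 h it was at 178 CPM against 47.2 and 50.6 CPM (−1.87, adjusted p = 0.00167). Meg3 was at 153 and 129 CPM against 22.1, 25.7 and 11.2 CPM (−3.05 ± 0.22, adjusted p = 0.00658), with 69.3 CPM against 28.7 and 28.4 CPM at 0 h. On the iFoxA1 side, Plagl1, a zinc-finger factor expressed from the paternal copy, was at 40.3, 41.6 and 9.39 CPM against 6.63 and 2 CPM (2.46 ± 0.15, adjusted p = 0.00558), with an interaction of 2.01 (adjusted p = 0.0198). Of the interferon list, 4 of 16 were higher in iFoxL2 and 2 in iFoxA1, and Oasl2 (13.7 and 7.02 CPM against 0.705, 0.599 and 2.07 CPM) and Oas1a (3.8 and 6.17 CPM against 12.2, 14.5 and 17.9 CPM) lay on opposite sides. The median log2 difference of the list was −0.71. Of the 6 called members, 0 remained called without iFoxA1 replicate 1, 0 without replicate 2 and 1 with these summed.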
